A study of Homo sapiens with 2 samples.

Results

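The breakpoint cluster region gene BCR, the tyrosine kinase gene ABL1 and their paralogues ABR and ABL2 were examined for H3K9me3, the trimethylated lysine of histone H3 that marks constitutive heterochromatin and silenced repeats. These 4 genes were taken by name, as the partners of the fusion of chronic myeloid leukemia and the closest relatives of each, from 35812 gene symbols, and each had 1 interval in the gene table. The data came from KBM7, an established near-haploid human cell line from a chronic myeloid leukemia, grown in IMDM with fetal calf serum; the labels name no treatment. Crosslinked, sheared chromatin was immunoprecipitated with Abcam antibody ab8898 against H3K9me3 in 1 library and with IgG in 1 other, which was not analysed here. There was thus no replicate and no control, and each value describes 1 library of 1 cell line. Neither the expression of the genes nor the break in this line was known from the sources used.

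BCR encodes a cytoplasmic protein with a serine/threonine kinase activity, an exchange factor domain and a GTPase-activating domain for Rac, and ABR shares the exchange factor and GTPase-activating domains but lacks the kinase part. ABL1 and ABL2 encode non-receptor tyrosine kinases that act on the actin cytoskeleton and, for ABL1, also in the nucleus. In the Philadelphia translocation the 5' part of BCR is joined to the 3' part of ABL1 on the derivative chromosome 22, and the fusion protein is a constantly active kinase. The usual breaks in ABL1 fall in its long 5' introns, upstream of the exon numbered 2, and those in BCR fall in the major region towards the 3' end of the gene or, less often in this disease, in its long first intron.

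The table gave reads for 40237 intervals, 78512210 in all, a sum in which reads of overlapping intervals count more than once and which is not the depth of the library. The gene score is reads per kb of the interval. Its median over symbols was 43.5, with 14.4 at the 10th and 147 at the 90th percentile. The peak list held 126965 peaks with a median width of 900 bp. Score intervals below are exact Poisson intervals at 95% and cover counting error only.

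The sequence before the start is shown for both fusion partners and for ABR, whose deposited intervals had no H3K9me3 peak near their start. A peak within 2 kb of the start of the deposited interval was present in 0 of the 4 genes, against 18.5% of all symbols and 19.9% of the 4188 symbols of 100 kb or more. RefSeq promoters (GRCh38.p14) matched all 4 genes by symbol, and the 250 bases before the start are printed 5' to 3', with each CG dinucleotide, the site of DNA methylation, in capitals. BCR is at chr22:23180259-23180508 on the plus strand, ABL1 at chr9:130835004-130835253 on the plus strand and ABR at chr17:1187273-1187522 on the minus strand.
BCR: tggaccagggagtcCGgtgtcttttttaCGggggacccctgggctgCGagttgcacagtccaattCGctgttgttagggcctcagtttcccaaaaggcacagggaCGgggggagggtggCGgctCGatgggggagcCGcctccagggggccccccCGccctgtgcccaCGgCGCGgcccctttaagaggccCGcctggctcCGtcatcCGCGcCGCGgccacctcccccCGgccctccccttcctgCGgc
ABL1: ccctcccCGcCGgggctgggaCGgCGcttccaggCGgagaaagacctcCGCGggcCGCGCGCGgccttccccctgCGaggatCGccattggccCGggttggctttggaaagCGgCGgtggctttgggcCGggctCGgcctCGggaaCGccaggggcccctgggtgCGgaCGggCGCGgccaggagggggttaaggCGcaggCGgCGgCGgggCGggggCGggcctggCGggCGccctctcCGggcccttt
ABR: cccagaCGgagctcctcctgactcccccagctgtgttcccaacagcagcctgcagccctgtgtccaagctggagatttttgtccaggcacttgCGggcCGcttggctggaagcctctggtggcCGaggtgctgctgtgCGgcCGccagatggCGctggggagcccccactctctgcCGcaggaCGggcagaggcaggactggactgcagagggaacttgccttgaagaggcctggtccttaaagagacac
The BCR sequence held 20 CG, that of ABL1 33 and that of ABR 9, against a median of 11 over 35116 promoters, of which 93.9% held at least 1. The other 5 starts of ABR in RefSeq held 33, 32, 8, 35 and 21 CG. More CG than in ABL1 were present in 6.84% of promoters. The motif CG reads the same on both strands, and a count of it is a description of these letters only. Measured from the 3' end of the gene, the BCR start in RefSeq and the start of the deposited interval differ by 0.805 kb. Of the 6 starts of ABR in RefSeq the one shown differs least from the deposited one, by 0.105 kb. The ABL1 start is an internal one, 52.4 kb from the 3' end of a gene whose deposited interval is 174 kb long, and its position on the build of the files was not determined, so that it was not checked for a peak. The same holds for ABL2, whose listed promoter held 1 CG and lies 43.7 kb from the 3' end.

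All 4 genes carried fewer reads per kb than the median symbol, and ABL1 carried the most. ABL1, on the plus strand of chromosome 9 from 133589268 to 133763062 (hg19), held 4954 reads over 174 kb, a score of 28.5 (27.7 to 29.3). ABR, on the minus strand of chromosome 17 from 906758 to 1090616, held 4632 reads over 184 kb, a score of 25.2 (24.5 to 25.9). BCR, on the plus strand of chromosome 22 from 23521891 to 23660224, held 3205 reads over 138 kb, a score of 23.2 (22.4 to 24.0).
ABL2, on the minus strand of chromosome 1 from 179068462 to 179198819, held 2959 reads over 130 kb, a score of 22.7 (21.9 to 23.5). The scores were 0.522 to 0.656 times the median of all symbols, and 0 of the 4 genes lay above it, against 50% of all symbols and 52.1% of those of 100 kb or more. ABL2, BCR, ABR and ABL1 scored above 23.7%, 24.3%, 27.1% and 31.3% of all symbols. Among symbols of 100 kb or more, whose median score was 44.4 (26.5 to 77.5 from the 10th to the 90th percentile), the 4 genes scored above 6.06%, 6.59%, 8.67% and 12.5% in the same order. Within their own chromosomes, over symbols of 1 kb or more, they stood nearer the middle, above 31.8% for ABL2, 43.0% for BCR, 49.8% for ABR and 44.98% for ABL1. The percentages over all symbols had no length minimum, so the chromosome and the minimum both differ from that comparison.

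Of the 6 pairs of genes 5 differed beyond counting error. ABL1 scored 1.26 times its paralogue ABL2 (1.20 to 1.31, exact interval of the ratio of 2 Poisson rates) and 1.13 times ABR (1.09 to 1.18). BCR scored 0.920 times its paralogue ABR (0.879 to 0.962) and 0.813 times its fusion partner ABL1 (0.777 to 0.850), and ABL2 scored 0.901 times ABR (0.860 to 0.944). BCR and ABL2 did not differ beyond counting error, with a ratio of 1.02 (0.971 to 1.07). These intervals hold no variation between cultures or libraries, which 1 library cannot show.

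**Figure D1:**
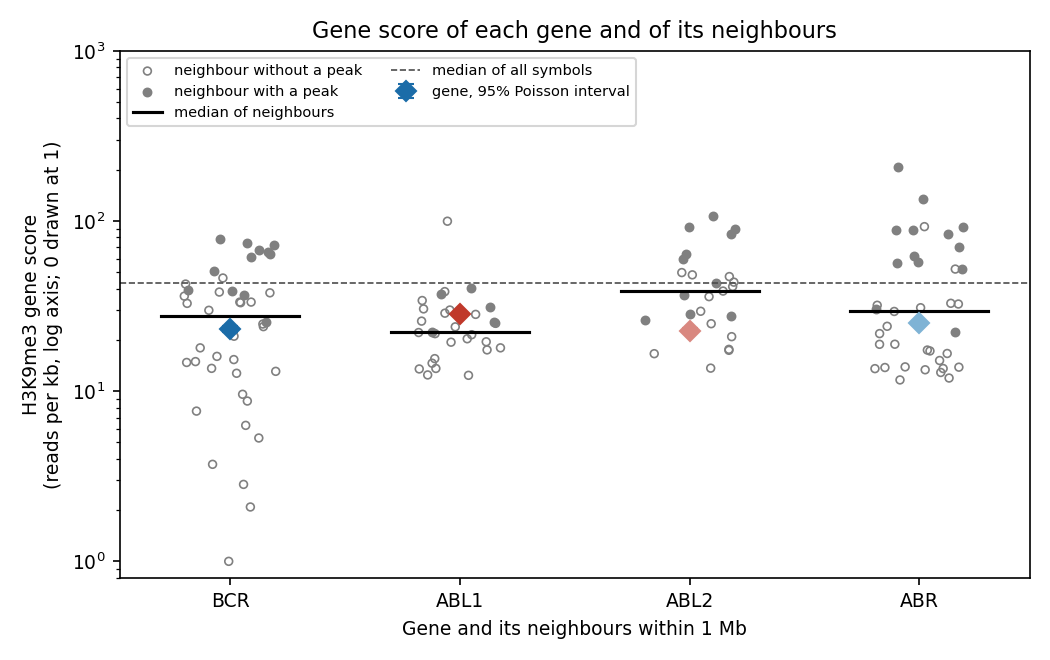
Gene score in reads per kb (log axis, a score of 0 drawn at 1) of BCR, ABL1, ABL2 and ABR (diamonds with 95% Poisson intervals, smaller than the symbols) and of the gene intervals of 1 kb or more within 1 Mb of each (circles, filled where the interval holds a peak; spread sideways at random). Black lines are the medians of the neighbours and the dashed line is the median of all symbols, 43.5; all 4 genes lie below the dashed line, and ABL1 alone lies above the median of its neighbours.

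H3K9me3 peaks were few in all 4 genes, and ABL1 held 4 of the 7 in all. Each gene held at least 1 peak, as did 90.1% of symbols of 100 kb or more and 36.8% of all symbols. BCR held 1 peak of 750 bp, at 23581201 to 23581950 (hg19), which lies 59.7 kb from the start of the gene. ABL2 held 1 of 1650 bp at 179118301 to 179119950, at 79.7 kb from its start. ABR held 1 of 2100 bp at 968851 to 970950, at 121 kb from its start. Of symbols of 100 kb or more 20.2% held 1 peak at most, and their median was 6.
The 4 peaks of ABL1 measured 900 bp at 133662301 to 133663200, 1950 bp at 133664101 to 133666050, 900 bp at 133684651 to 133685550 and 750 bp at 133703551 to 133704300. They lie 73.5, 75.8, 95.8 and 115 kb from the start of the gene, so that the first pair is separated by less than 1 kb. Of symbols of 100 kb or more 43.7% held 4 peaks or fewer. Of the 7 peaks 5 were at least as wide as the median peak, 900 bp, and the widest, in ABR, was wider than 80.9% of all peaks.

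Peaks covered 0.542% of BCR, 1.14% of ABR, 1.27% of ABL2 and 2.59% of ABL1, against a median of 3.06% for symbols of 100 kb or more. In peaks per 100 kb the values were 0.544 for ABR, 0.723 for BCR, 0.767 for ABL2 and 2.30 for ABL1, against a median of 2.67. ABL1 thus lay close to the middle of long genes, above 44.9% of them by peaks per 100 kb, whereas ABR, BCR and ABL2 lay above 12.7%, 16.3% and 17.4%. The gene with the most peaks was also the one with the highest score, but both values come from the same library. The order did not hold further, since ABR, with the next highest score at 25.2, had the fewest peaks per 100 kb.

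**Figure D2:**
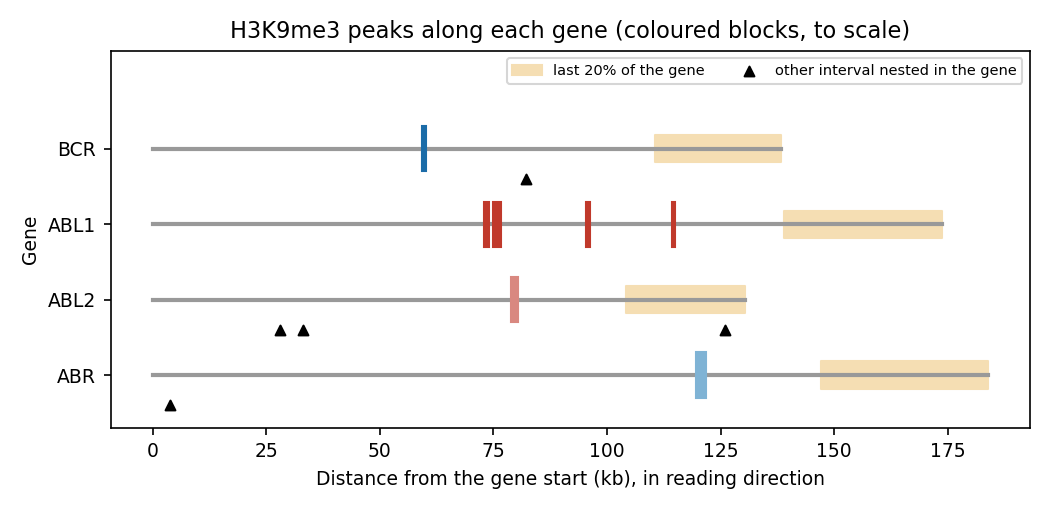
Position of each peak (coloured blocks, to scale) along BCR, ABL1, ABL2 and ABR, in kb from the start of the gene in reading direction, with the last 20% of each gene shaded and other intervals nested in the gene as triangles. All 7 peaks lie before the shaded part, and ABL1 holds 4 of them.

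To place the peaks relative to the usual breaks, each gene was divided at 80% of its length. This is the approximate textbook position of the major breakpoint region of BCR and of the 3' end of the long 5' introns of ABL1; exon positions on hg19 were not used here. ABL2 and ABR have no usual break and were divided at the same share. All 7 peaks lay in the 5' part and 0 in the last 20%, a part without a peak in 45.1% of symbols of 100 kb or more. With 1 peak in each of 3 genes this position says little by itself, and in ABL2 and ABR a division at 50% of the length puts the peak in the 3' part.

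In BCR the 5' part, which the fusion with the major break retains, held 1 peak and 0.678% of its sequence in peaks, and the last 27.7 kb held none. The peak lies at 43.1% of the gene, and from there to the next peak, 19.1 kb beyond the 3' end, 97.4 kb were free of peaks. On the 5' side the nearest peak outside the gene lay 13.9 kb away. The major breakpoint region thus lay in a stretch without a called peak.

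In ABL1 the 5' part, where the usual breaks fall, held all 4 peaks and 3.24% of its sequence in peaks. They lay at 42.3%, 43.6%, 55.1% and 66.0% of the gene. The last 34.8 kb, which hold the kinase exons retained in the fusion, held none. From the last peak to the next one beyond the gene, 59.9 kb past its 3' end, 119 kb were free of peaks, and 93.9 kb were free of peaks before the first one, from 20.9 kb outside the 5' end. Whether the peaks lie upstream or downstream of the break in KBM7 was not determined.

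In ABL2 the peak lay at 61.1% of the gene, with 78.9 kb free of peaks before it inside the gene and 49.8 kb after it. In ABR it lay at 65.7%, with 120 kb free of peaks before it and 62.1 kb after it. Both paralogues held 0 peaks in their last 20%, as the fusion partners did.

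Reads were deposited per interval, so reads within a gene were seen only through the other intervals nested in it, 5 in all, none of which held a peak. In BCR the interval U07000.1, 282 bp at 23603969 to 23604250 and 59.4% along the gene, held 4 reads, a score of 14.2 (3.86 to 36.3), which includes the score of BCR. In ABL2 RP11-177A2.4, at 179070798 to 179074885 near the 3' end (96.6%), held 65 reads, a score of 15.9 (12.3 to 20.3), below that of the whole gene. An ABL2 interval named SNORA67, a small nucleolar RNA, held 21 reads in 141 bp at 179170622 to 179170762, a score of 149 (92.2 to 228), and the other SNORA67 interval in ABL2, 107 bp at 179165608 to 179165714, held 3, a score of 28.0 (5.78 to 81.9).
In ABR AC016292.1, at 1085187 to 1088380 near the 5' end (2.08%), held 76 reads, a score of 23.8 (18.7 to 29.8), which includes the score of ABR. No other interval overlapped ABL1, so its reads could not be divided between the side the fusion keeps and the side it loses. Without the nested intervals the scores of BCR, ABL2 and ABR changed by less than their counting error.

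Against their surroundings ABL1 stood above and ABL2 below the local level, and for BCR and ABR the order depended on the neighbours used. The local level was the median score of the intervals of 1 kb or more that lie within 1 Mb and do not overlap the gene. For ABL1 it was 22.4 over 29 neighbours (25th to 75th percentile 17.96 to 29.97), so that the gene scored 1.28 times the local level, above 20 neighbours and below 9. For ABL2 it was 38.7 over 25 neighbours (26.1 to 49.7), so that the gene scored 0.586 times the local level, below 20 of them and above 5. The sign held for both genes in the alternatives tried, with windows of 500 kb and 2 Mb, pooled reads, no length minimum and neighbours without a peak. For ABL1, however, the log2 ratio came down to 0.013 with no length minimum. That lies within the counting error of its score, so ABL1 was then level with its neighbours.

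BCR scored 0.837 times its local level of 27.7 (42 neighbours, 13.2 to 39.3), above 18 and below 24 of them. ABR scored 0.857 times its local level of 29.4 (37 neighbours, 15.1 to 57.1), above 18 and below 19. For both the sign turned with a window of 2 Mb, with log2 ratios of 0.041 for BCR and 0.18 for ABR. ABR then stood above the local level, and BCR was level with it within the counting error of its score. Against neighbours without a peak BCR scored 1.48 times the median of 15.7 and ABR 1.45 times that of 17.3. That comparison cannot decide the direction, since peaks and scores come from the same library and BCR and ABR each held a peak. Leaving out neighbours with a peak lowered the median itself, from 27.7 for BCR and from 29.4 for ABR. Against pooled reads of the neighbours BCR and ABR stood further below the local level, with log2 ratios of -0.66 and -1.05. With no length minimum the ratio was -1.49 for BCR and -0.25 for ABR. ABL1 scored 1.32 times and ABL2 0.694 times the median of neighbours without a peak, which was 21.6 for ABL1 and 32.7 for ABL2. The same limit holds for ABL1, which also held peaks and stood above that median.

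The intervals next to each gene varied over a wide range. On the 5' side of BCR the nearest was RAB36, a Rab GTPase gene, at 29.9 (27.5 to 32.4), and on its 3' side AP000343.2 at 9.58 (5.68 to 15.1). The highest within 1 Mb of BCR was the zinc finger gene ZNF280A at 78.4 (71.8 to 85.5), and the lowest was GSTT1, a glutathione transferase gene, with 0 reads over 8.55 kb. The exact Poisson interval of that score reaches 0.432, and the limit of 3 reads that a count of 0 allows is a score of 0.351; a count of 0 leaves unknown whether the mark, the sequence or uniquely placed reads were missing.
The nearest intervals of ABL1 were EXOSC2, a subunit gene of the RNA exosome, on the 5' side at 12.4 (10.4 to 14.6), the lowest of its neighbours, and FIBCD1 on the 3' side at 28.7 (27.0 to 30.5). RP11-323H21.3 was the highest at 99.6 (90.9 to 109), without a peak. For ABL2 TOR3A on the 3' side scored 17.6 (15.6 to 19.7) and SOAT1, a sterol acyltransferase gene, on the 5' side 28.3 (27.0 to 29.6), with the highest at 106 (101 to 112) for RP11-12M5.1 and the lowest at 13.7 (11.5 to 16.1) for AL359853.2.
For ABR TIMM22, a mitochondrial import gene, on the 3' side scored 24.0 (19.95 to 28.7) and TUSC5 on the 5' side 52.1 (49.1 to 55.3). GEMIN4 was the highest at 207 (197 to 217), with 59.8% of its length in a peak, and OVCA2 the lowest at 11.6 (6.36 to 19.5).

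**Figure D3:**
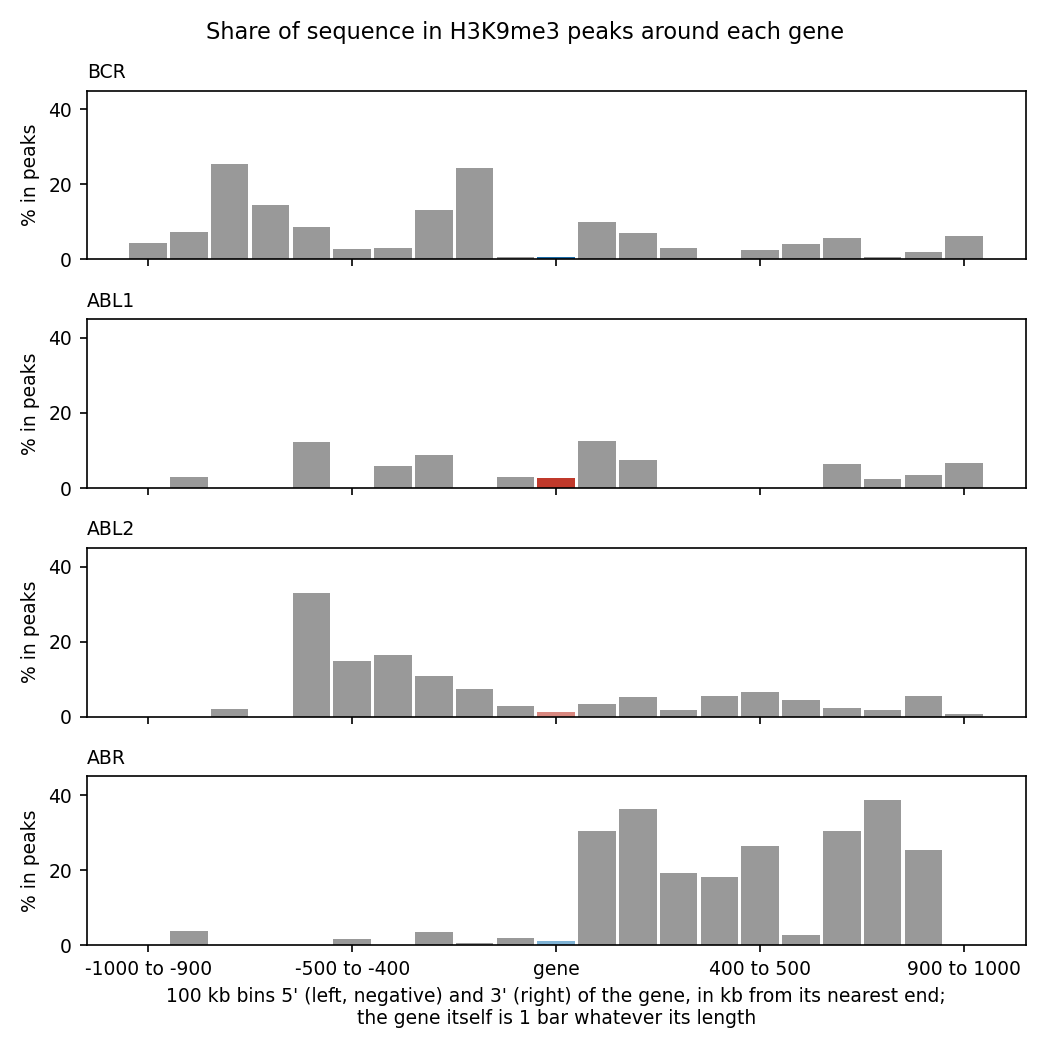
Share of sequence in peaks, in percent, in 100 kb bins from 1 Mb 5' of each gene (left) to 1 Mb 3' of it (right), with the gene itself as the coloured bar in the middle whatever its length; the window of ABR ends at the start of the chromosome. The bins 3' of ABR reach 38.6% and those 5' of ABL2 reach 32.9%, whereas no bin around ABL1 exceeds 12.6%.

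The 2 sides of each gene differed most for ABR. Over 1 Mb on its 5' side 1.17% of the sequence lay in 8 peaks, and on its 3' side, where 907 kb remain to the start of the chromosome, 25.3% lay in 92 peaks. ABR itself had 1.14% of its sequence in a peak, close to the value of its 5' side, and the nearest peak on the 3' side lay 7.96 kb beyond the gene. NXN, a nucleoredoxin gene chosen after its values were seen and 23.7 kb from ABR, had 26 peaks over 34.8% of its length and a score of 91.98 (90.6 to 93.4). Pooled over intervals of 1 kb or more, each stretch counted once, the 3' side held 81.5 reads per kb (80.8 to 82.2) and the 5' side 22.01 (21.6 to 22.4). The 3' side also held more without intervals that have a peak, 27.8 (26.1 to 29.6) against 18.3 (17.9 to 18.7). That value of the 3' side rests on 4 intervals over 35.1 kb, and that of the 5' side on 18 over 428 kb.

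For ABL2 the 5' side held 8.73% of its sequence in 65 peaks and the 3' side 3.71% in 35. Pooled reads were 46.9 per kb (46.4 to 47.4) on the 5' side and 37.4 (36.8 to 37.9) on the 3' side, both above the score of the gene. In intervals without a peak the order turned, with 23.1 (22.4 to 23.9) on the 5' side and 29.8 (28.4 to 31.2) on the 3' side. These rest on 7 intervals over 155 kb on the 5' side and only 5 over 56.8 kb on the 3' side.

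For BCR the 5' side, which holds the immunoglobulin lambda segments, carried 10.4% of its sequence in 68 peaks and the 3' side 4.14% in 25. Pooled reads were 47.7 per kb (46.9 to 48.6) on the 5' side and 28.8 (28.3 to 29.3) on the 3' side, and in intervals without a peak 36.2 (34.9 to 37.5) and 21.98 (21.3 to 22.7). The values without a peak rest on 6 intervals over 83.2 kb on the 5' side and 16 over 178 kb on the 3' side. GNAZ, chosen after its values were seen, held 2328 of those 3008 reads on the 5' side, over 54.7 kb. Most lambda segments are shorter than 1 kb and did not enter the pooled reads. The interval D87024.2, 92.7 kb with 6 peaks and spanning IGLL5, did enter. It was chosen after its values were seen and held 5957 of the 11915 pooled reads of the 5' side. The order of the sides turned when the window was widened to 2 Mb (log2 ratio of the 3' to the 5' side 0.31, against -0.73 within 1 Mb), and over the whole chromosome it was 0.69.

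The sides of ABL1 were alike in peaks, with 3.29% in 22 peaks on the 5' side and 3.89% in 19 on the 3' side. Pooled reads were 23.9 per kb (23.5 to 24.2) on the 5' side and 28.6 (28.1 to 29.0) on the 3' side. In intervals without a peak the sides held 22.2 (21.7 to 22.7) on the 5' side and 21.5 (21.0 to 22.002) on the 3' side. These did not differ beyond counting error, with a log2 ratio of the 3' to the 5' side of -0.047 (-0.094 to 0.0013). In that comparison ABL1, which itself held 4 peaks, lay above both sides at 28.5. Over all intervals ABL1 lay above the 5' side and was level with the 3' side.

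**Figure D4:**
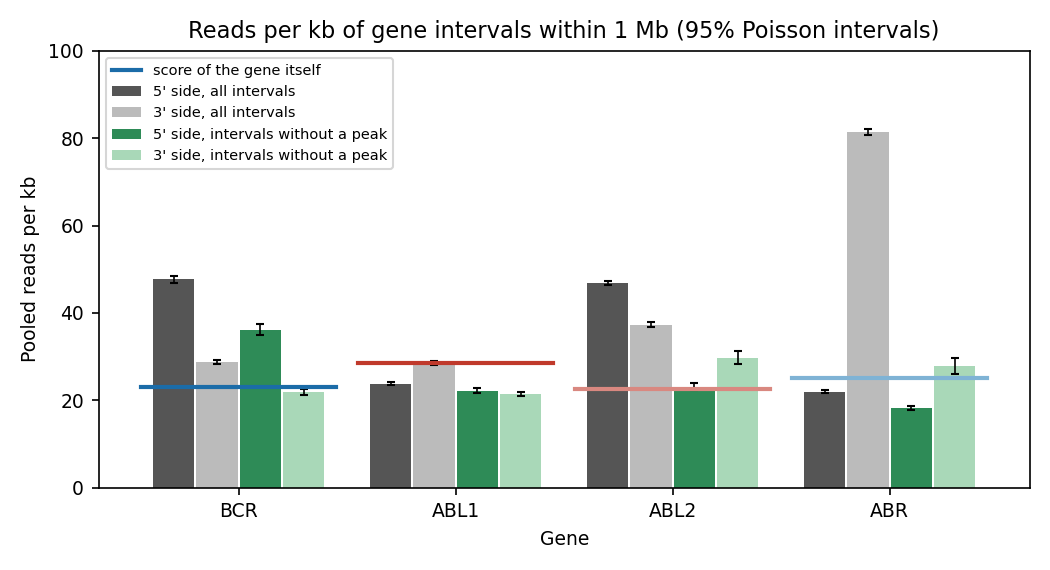
Pooled reads per kb, with 95% Poisson intervals, of gene intervals of 1 kb or more within 1 Mb on the 5' and the 3' side of each gene, for all intervals (grey) and for those without a peak (green), with the score of the gene itself as a coloured line. The 3' side of ABR stands out at 81.5, and the green bars of ABL1 are nearly level at 22.2 and 21.5.

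In the usual translocation the sequence 5' of BCR and 3' of ABL1 lies on the chromosome that carries the fusion gene, and the sequence 3' of BCR and 5' of ABL1 on the reciprocal one. Pooled over both genes, the sides next to the fusion held 34.3 reads per kb (33.9 to 34.7) and the reciprocal sides 25.5 (25.3 to 25.8), a ratio of 1.34 (1.32 to 1.36). Of the 28808 reads next to the fusion, D87024.2 alone held 5957. In intervals without a peak they held 24.4 (23.9 to 24.8) and 22.1 (21.7 to 22.5), a ratio of 1.10 (1.07 to 1.13). BCR had more reads per kb on its fusion side in both comparisons, and ABL1 in the first but not in intervals without a peak. These ratios hold for 1 Mb only: for BCR the order of the sides turned within 2 Mb and over the whole chromosome, at log2 ratios of the 3' to the 5' side of 0.31 and 0.69. Reads were not corrected for copy number, so copies of a chromosome segment and level of the mark cannot be told apart.

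Other genes of the pathway were described from lists, in which a gene can appear more than once. The 36 genes whose products bind to or signal from the fusion kinase were low in H3K9me3, at a median score of 20.3, and 2 of 36 exceeded the median symbol (50% of all symbols do). A peak was present in 9 of them (25%, against 36.8% of all symbols). The median length of these genes was 67.3 kb, and 9 of 36 were of 100 kb or more, where 90.1% of symbols held a peak. No share was computed for symbols of like length, here or for the lists below. The 2 highest were MYC, a growth-promoting transcription factor gene on chromosome 8, at 87.7 (80.4 to 95.6) without a peak, and JAK2, a cytokine receptor kinase gene, at 50.9 (49.7 to 52.1) with 11 peaks. The lowest were the phosphoinositide 3-kinase subunit gene PIK3R2 at 13.3 (11.7 to 15.1) and the adaptor gene SHC1 at 13.4 (11.4 to 15.6). Of this list 12 genes scored above BCR and 8 above ABL1.

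Of the 31 genes of ABL regulators and substrates 7 exceeded the median symbol (50% of all symbols do) and 12 held a peak (38.7%, against 36.8% of all symbols), with a median score of 29.996. Their median length was 80.2 kb, and 13 of 31 were of 100 kb or more. CTTN, the actin-binding substrate cortactin, scored 90.9 (87.9 to 94.0) with 40.5% of its length in peaks, and SORBS2, an adaptor gene, 65.4 (64.6 to 66.2). The peroxiredoxin gene PRDX1 was among the lowest at 12.5 (10.6 to 14.7).
Of the 30 other non-receptor tyrosine kinases 9 lay above the median symbol (50% of all symbols do) and 14 held a peak (46.7%, against 36.8% of all symbols), with a median score of 36.6, and 21 of 30 scored above ABL1. The median length of these kinases was 64.6 kb, and 10 of 30 were of 100 kb or more. The highest, the B cell kinase gene BLK at 159 (157 to 162) and the focal adhesion kinase gene PTK2 at 154 (153 to 156), both lie on chromosome 8, where 3 of the 4 list members lay above the median. Chromosome 8 is known to be present in an extra copy in KBM7, and its part in these scores was not tested; without chromosome 8 and 60 to 90 Mb of chromosome 15, 6 of 25 kinases lay above the median. BTK, a Tec family kinase, and TNK2 were lowest at 13.0 (11.8 to 14.2) and 15.7 (14.6 to 16.9).

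Likeness of pattern across samples could not be computed with 1 library, and duplicated copies of BCR sequence were not analysed here; reads from near-identical copies can be split between them and BCR.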

How the data were processed

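Chromatin immunoprecipitation with sequencing was done in KBM7 cells, with 1 H3K9me3 and 1 IgG library, and the H3K9me3 library was used here. Per the submitters' processing notes, Bowtie2, MACS and the build hg19 were used; their versions, roles and settings are not stated there. The authors deposited a read count per gene interval, not normalised, and a score, a signal equal to reads divided by interval length in kb (largest difference 3.03e-06), not scaled to depth, control or copy number. The deposited interval length equals the coordinate span in 40237 of 40237 intervals. The deposited peak list gives positions on a 150 bp grid, with no height or significance.

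Overlap of a peak was 1 bp or more, and for symbols with several intervals the highest score was used. With 1 library no test was run; intervals are exact Poisson or, for ratios of rates, exact conditional intervals, checked against enumerated probabilities, and the peak cover was checked on simulated data. Pooled sides kept the longest of overlapping intervals. The genes named are the 4 genes, intervals overlapping them, the nearest, highest and lowest neighbours within 1 Mb and the 2 highest and 2 lowest of each list; 1 gene and 1 list are not reported here. The genes and lists were chosen with earlier results of these data known. Promoters and lengths came from RefSeq tables on GRCh38.p14, matched by symbol, with no coordinates carried between builds. Scripts ran in Python 3.11.15 with scipy 1.17.1, pandas 2.3.3, numpy 2.4.6 and, for figures, matplotlib 3.10.9.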

Additional observations from a re-analysis of the deposited data

How the results depend on the processing

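Of 79 alternative values for 28 results, 35 stayed within the limit set for them, 32 moved past it and 12 changed sign; the limit was the counting error of the main value for scores and log2 ratios, and 1.5 times for peak cover and for the lists. The scores of the 4 genes stayed within counting error without nested intervals or with the longest interval per symbol. The counts and medians of the gene lists stayed within 1.5 times, also without chromosome 8 and 60 to 90 Mb of chromosome 15. Without these regions the count above the median symbol went from 2 of 36 to 3 of 34 for the signalling partners. For the kinases it went from 9 of 30 to 6 of 25. Both counts lie at the limit of 1.5 times and not inside it. The log2 ratio of BCR to its local level, -0.26, was -0.51 within 500 kb, 0.041 within 2 Mb, -0.66 with pooled reads, -1.49 with no length minimum and 0.56 against neighbours without a peak; for ABL1, 0.35, it was 0.22 within 500 kb, 0.16 pooled, 0.013 with no length minimum and 0.40 without a peak. For ABL2, -0.77, it was -0.70, -0.95, -0.92, -0.89 and -0.53 in the order given for BCR, and for ABR, -0.22, it was 0.18 within 2 Mb, -1.05 pooled and 0.54 without a peak. With peaks of 1 kb or more only, cover of BCR was 0 and that of ABL1 1.12%, and the 5' minus 3' differences were 0 and 1.40 points, since narrower peaks drop out. With the genes divided at 50% those differences, 0.678, 3.24, 1.58 and 1.43 points at 80% for BCR, ABL1, ABL2 and ABR, were 1.08, 1.38, -2.53 and -2.28. The log2 ratio of the 3' to the 5' side of BCR, -0.73, was -0.36 within 500 kb, 0.31 within 2 Mb, 0.69 over the whole chromosome and 0.21 there without peaks. For ABL1, 0.26, it was 0.17 within 500 kb, 0.73 within 2 Mb, -0.047 without peaks, 0.035 over the whole chromosome and -0.14 there without peaks. For ABL2, -0.33, the same 5 settings gave -0.58, -0.10, 0.36, -0.20 and -0.24, and for ABR, 1.89, they gave 1.64, 1.70, 0.60, 1.08 and 0.32. The 3' side of ABR ends at the start of the chromosome, after 907 kb. The settings of 2 Mb and of the whole chromosome thus added intervals on its 5' side only. The cause of these shifts was not tested. The settings with neighbours without a peak, whole chromosomes and without chromosome 8 were chosen after seeing the data. No paired analysis was possible because only 1 library was used and no test was run.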
